A study of Homo sapiens with 6 samples.

Results

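The class I and IIb histone deacetylases were examined, the zinc-dependent enzymes that Vorinostat inhibits. The genes HDAC1, HDAC2, HDAC3 and HDAC8 of class I and HDAC6 and HDAC10 of class IIb were taken by name, with every probe set that names 1 of them and no other gene. This gave 12 probe sets for 6 genes, of 54613 probe sets and 19775 genes in all. The samples were OCI-AML3 cells, a human acute myeloid leukaemia line that carries a mutation of nucleophosmin, given 1 μM Vorinostat (SAHA) for 24 h (3 samples) or DMSO, its solvent, alone (3 samples). Each group holds replicates numbered 1, 2 and 3, all of the same line. Nothing in the labels or methods tells whether the replicates were cultured apart, and p-values therefore cover the variation among these arrays alone, part of which may be technical.

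Histone deacetylases remove acetyl groups from lysines, on histones and on other proteins, and Vorinostat is a hydroxamic acid that binds the zinc ion in their catalytic pocket. HDAC1 and HDAC2 are close relatives that work in the nuclear NuRD, SIN3 and CoREST corepressor complexes, whereas HDAC3 is the enzyme of the NCOR and SMRT complexes. HDAC8 deacetylates SMC3 of the cohesin ring, HDAC6 is a largely cytoplasmic enzyme that deacetylates α-tubulin and binds ubiquitin, and HDAC10 deacetylates polyamines. The drug blocks the enzymes, so the RNA level of their genes is a separate question from their activity, and only RNA was measured here.

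HDAC1, HDAC2 and HDAC3 were the members with any log2 value above 3. HDAC1 and HDAC2 had such values only on the arrays of replicate number 1, and HDAC3 outside number 1 only in DMSO replicate 2, at 3.39. The bases before their transcription starts are shown because these genes carry the readable part of the data. They are the 250 bases upstream of the RefSeq start on GRCh38.p14, written 5′ to 3′ along the gene, and capitals mark the GC box GGGCGG or its reverse complement CCGCCC.
HDAC1 (chr1:32291833-32292082, plus strand): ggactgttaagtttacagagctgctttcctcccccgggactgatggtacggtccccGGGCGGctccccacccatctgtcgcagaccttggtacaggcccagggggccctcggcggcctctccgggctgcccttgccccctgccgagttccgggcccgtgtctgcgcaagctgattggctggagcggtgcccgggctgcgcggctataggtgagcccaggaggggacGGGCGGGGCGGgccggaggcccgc
HDAC2 (chr6:113971149-113971398, minus strand): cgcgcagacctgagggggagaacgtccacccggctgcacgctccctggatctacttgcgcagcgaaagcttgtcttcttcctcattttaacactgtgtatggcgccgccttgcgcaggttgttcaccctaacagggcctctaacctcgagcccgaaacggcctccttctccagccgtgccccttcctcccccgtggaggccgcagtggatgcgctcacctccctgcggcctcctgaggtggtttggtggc
HDAC3 (chr5:141636850-141637099, minus strand): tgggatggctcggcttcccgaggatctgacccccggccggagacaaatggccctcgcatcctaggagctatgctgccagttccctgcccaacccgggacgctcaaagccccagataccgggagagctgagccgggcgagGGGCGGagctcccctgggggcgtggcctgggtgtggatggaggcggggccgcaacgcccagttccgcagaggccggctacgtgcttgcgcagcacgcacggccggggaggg
The HDAC1 window held 3 GC boxes, at 194, 24 and 19 bases before the start, of which the last 2 overlap. The HDAC3 window held 1, at 111 bases before the start, and the HDAC2 window held 0. A GC box on either strand was present in 42.6% of the 35116 promoter windows of the same length. The letters CCAAT or ATTGG, found in 32.0% of the windows, were present once in HDAC1 and absent from HDAC2 and HDAC3, and TATAAA or TTTATA, found in 10.7%, was absent from all 3 windows. The G and C content was 71.6% for HDAC1, 63.2% for HDAC2 and 70.8% for HDAC3. These letters are a description of the windows, and no readout of promoter activity is in these data.

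The arrays differed in signal more than the groups did. Above a log2 value of 3 lay 8158 probe sets on the array of Vorinostat replicate 1, and 2769 and 3274 on those of Vorinostat replicates 2 and 3. On the DMSO arrays there were 8645 for replicate 1, and 3731 and 2761 for replicates 2 and 3. Array medians lay between 1.55 and 1.66, and a value near them cannot be told from no signal. Of the genes listed as myeloid or OCI-AML3 markers, LYZ, CEBPA, PTPRC and NPM1 lay above 3 on all 6 arrays, whereas MPO, ANPEP, FLT3 and SPI1 lay above 3 on 0 arrays. MEIS1 lay above 3 on the number 1 arrays only, at 3.42 with Vorinostat and 3.35 with DMSO. CD33, CD68 and HOXA9 of that list were not measured. Of 23 markers of T, B, erythroid, fibroblast and epithelial cells, 0 lay above 3 on all arrays and 19 lay above 3 on 0 arrays.

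HDAC1, read by the single probe set 201209_at, had log2 values of 7.96, 2.17 and 2.45 in Vorinostat replicates 1, 2 and 3. In DMSO replicates 1, 2 and 3 they were 7.16, 2.63 and 1.55. Both number 1 arrays were high and the other 4 were low, and the groups overlapped. On the number 1 arrays 98.6% of all probe sets lay below it with Vorinostat and 97.6% with DMSO, whereas in DMSO replicate 3 only 34.2% did. The mean was 4.19 ± 3.27 with Vorinostat and 3.78 ± 2.97 with DMSO (SD, n = 3 each). The log2 difference was 0.42 (standard error 2.19, adjusted p = 1 from limma), with a 95% interval of -5.10 to 5.93. This interval holds both large negative and large positive differences of HDAC1 RNA. The RNA came from whole cultures, so fewer cells with the transcript and less of it per cell cannot be told apart. Within replicate numbers 1, 2 and 3 the differences were 0.81, -0.46 and 0.89, so the sign changed between numbers. With the replicate number as a block the interval narrowed to -0.45 to 1.28.

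HDAC2 was read by a pair of probe sets that behaved differently. Its brighter probe set, 201833_at, had log2 values of 7.18, 2.11 and 2.35 in Vorinostat replicates 1, 2 and 3, against 6.59, 1.87 and 2.31 in DMSO replicates 1, 2 and 3. As for HDAC1, only the number 1 arrays were high. The Vorinostat value was above the DMSO value of the same number each time, by 0.59, 0.24 and 0.04, which was also true of 12.4% of all probe sets. The mean was 3.88 ± 2.86 with Vorinostat and 3.59 ± 2.61 with DMSO (SD, n = 3 each), and the log2 difference was 0.29 (standard error 1.92, adjusted p = 1 from limma; interval -4.54 to 5.12). With the replicate number as a block its interval was -0.11 to 0.68, with an adjusted p = 0.887 from limma.

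The second HDAC2 probe set, 242141_at, had low values that did not overlap between the groups. They were 1.5, 1.57 and 1.45 in Vorinostat replicates 1, 2 and 3, against 1.70, 1.89 and 1.80 in DMSO replicates 1, 2 and 3. All 3 Vorinostat arrays lay below all 3 DMSO arrays, as they did for 2.87% of all probe sets. The log2 difference was -0.29 (standard error 0.0965; unadjusted p = 0.0261, adjusted p = 1 from limma), with an interval of -0.54 to -0.05. Of the 12 deacetylase probe sets it was the 1 with an unadjusted p under 0.05, on the lower side, where 0.5% of all probe sets lay, and 0 were on the higher side (0.498%; 0.998% in either direction). With the replicate number as a block it was again the 1 of 12 lower (2.09% of all) with 0 higher (1.59%; 3.67% in either direction), and by the methods' t-test it was the 1 of 12 in either direction (2.04% of all). After adjustment 0 passed, for the 12 or for all probe sets, with any of these fits. Its values sat near the array medians, also on the number 1 arrays where the brighter probe set of the same gene was high, and the difference had the opposite sign. No change of HDAC2 RNA can be read from it. It had an unadjusted p of 0.0805 without DMSO replicate 2, 0.06 without DMSO replicate 3, 0.0672 without Vorinostat replicate 1 and 0.0844 without Vorinostat replicate 3.

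HDAC3, read by 216326_s_at, was the 1 member whose values lay above 3 on an array outside replicate number 1. They were 6.40, 2.85 and 2.24 in Vorinostat replicates 1, 2 and 3, and 4.49, 3.39 and 2.73 in DMSO replicates 1, 2 and 3. The number 1 arrays were again the highest, and Vorinostat replicate 1 stood 1.90 above DMSO replicate 1. In numbers 2 and 3 the Vorinostat array was lower, by -0.53 and -0.50. The mean was 3.83 ± 2.24 with Vorinostat and 3.54 ± 0.89 with DMSO (SD, n = 3 each), and the log2 difference was 0.29 (standard error 1.2, adjusted p = 1 from limma; interval -2.73 to 3.31). With both number 1 arrays left out the difference was -0.51. Between 86.4% and 96.7% of all probe sets lay below HDAC3 on the Vorinostat arrays, and between 91.2% and 94.7% on the DMSO arrays.

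**Figure D1:**
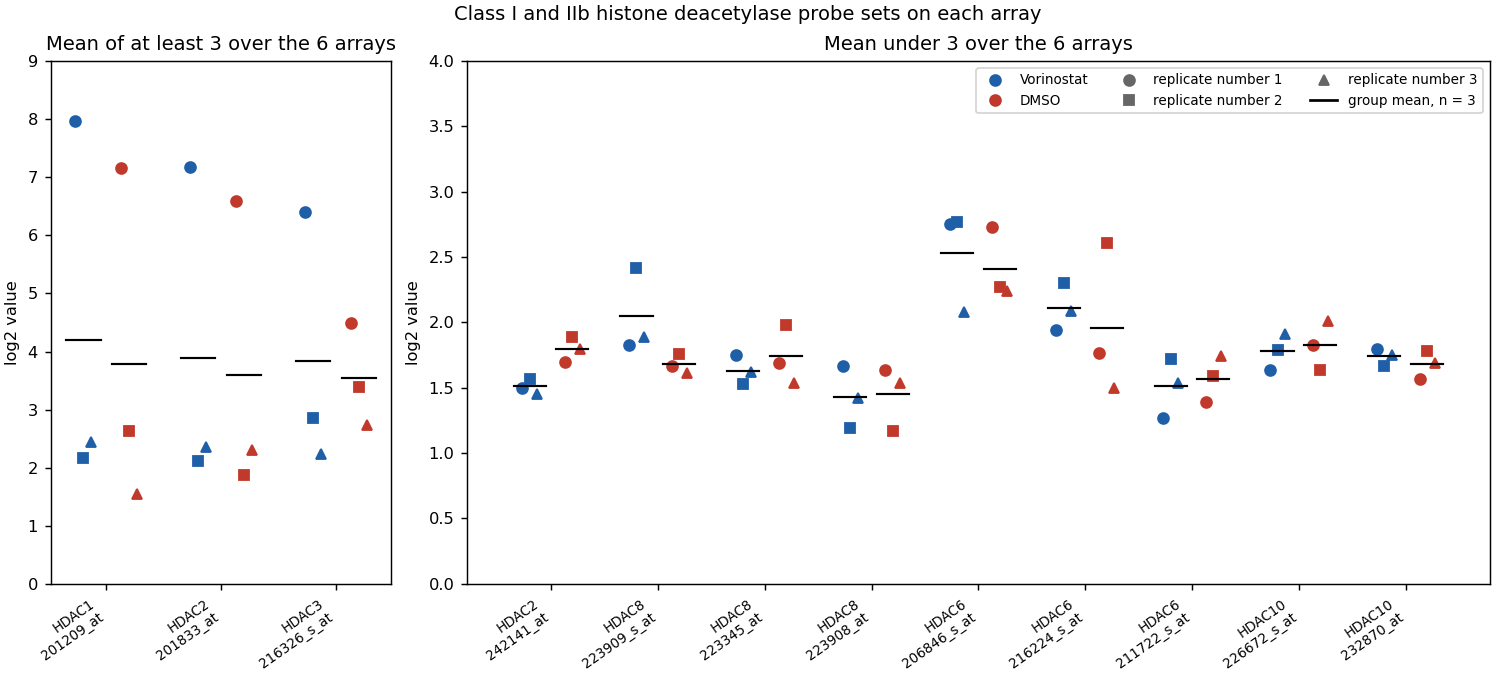
Log2 values of the 12 histone deacetylase probe sets on each array, Vorinostat (blue) left of DMSO (red), where symbols give replicate numbers and black lines mark the means of 3 arrays. The 3 probe sets on the left have a mean of at least 3 over the 6 arrays and are drawn on a taller scale than the other 9. The circles of HDAC1 and HDAC2 201833_at stand between 6.59 and 7.96, and their other arrays between 1.55 and 2.63.

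HDAC8 gave no signal above 3 on any array with any of its 3 probe sets. The brightest, 223909_s_at, had log2 values of 1.83, 2.42 and 1.89 in Vorinostat replicates 1, 2 and 3, against 1.67, 1.76 and 1.61 in DMSO replicates 1, 2 and 3. The lowest Vorinostat value exceeded the highest DMSO value, which held for 2.39% of all probe sets, and the log2 difference was 0.37 (standard error 0.183; unadjusted p = 0.0982, adjusted p = 1 from limma; interval -0.09 to 0.83). The other probe sets of HDAC8 had differences of -0.10 (223345_at; interval -0.47 to 0.27) and -0.02 (223908_at; interval -0.50 to 0.46). The 3 probe sets thus gave different signs for 1 gene. Of all probe sets, between 68.8% and 89.8% lay below 223909_s_at on the Vorinostat arrays, and between 41.9% and 63.0% on the DMSO arrays.

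HDAC6, the tubulin deacetylase, also stayed under 3 on all arrays. Its brightest probe set, 206846_s_at, had log2 values of 2.75, 2.77 and 2.08 in Vorinostat replicates 1, 2 and 3, against 2.73, 2.27 and 2.24 in DMSO replicates 1, 2 and 3. These are above the array medians, with between 82.1% and 93.5% of probe sets below it on each array, and the groups overlapped. The log2 difference was 0.12 (standard error 0.252, adjusted p = 1 from limma; interval -0.51 to 0.75). Its means on the number 1 arrays and on the other 4 were 2.74 and 2.34, a gap of 0.40. Of the other probe sets of HDAC6, 216224_s_at ranged from 1.94 to 2.30 with Vorinostat and from 1.5 to 2.61 with DMSO (difference 0.15), and 211722_s_at from 1.27 to 1.72 and from 1.39 to 1.74 (difference -0.06). Without DMSO replicate 2 the difference of 216224_s_at was 0.47 (unadjusted p = 0.0458 from limma).

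HDAC10 lay near the array medians with both of its probe sets. The brighter, 226672_s_at, had log2 values of 1.64, 1.79 and 1.91 in Vorinostat replicates 1, 2 and 3, against 1.83, 1.64 and 2.01 in DMSO replicates 1, 2 and 3. The log2 difference was -0.04 (standard error 0.137, adjusted p = 1 from limma; interval -0.39 to 0.30). The other, 232870_at, had a difference of 0.06 (interval -0.19 to 0.31). The narrow intervals of HDAC10 and HDAC8 are those of probe sets under 3 on all arrays.

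**Figure D2:**
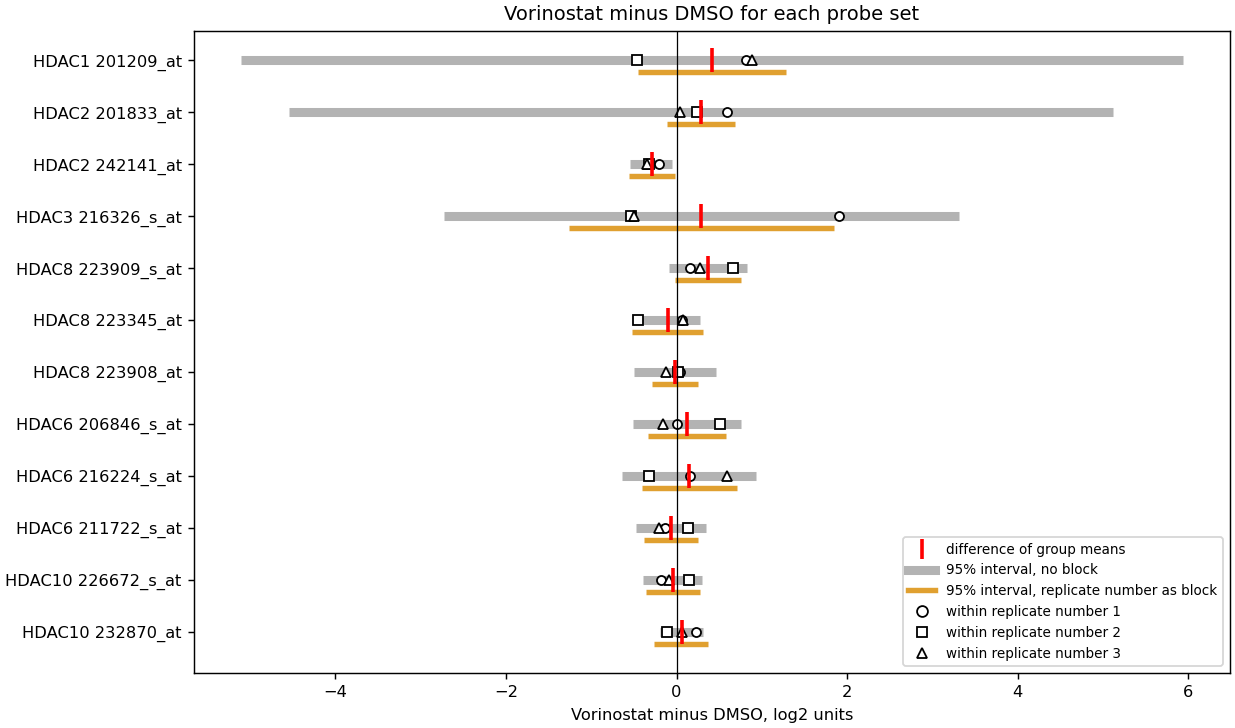
Vorinostat minus DMSO in log2 units for each probe set. Red ticks are the differences of the group means, open symbols the differences within each replicate number, grey bars the 95% intervals of limma without a block and orange bars those with the replicate number as a block. The grey bars of HDAC1 and HDAC2 201833_at run from -5.10 to 5.93 and from -4.54 to 5.12, and the grey bar of HDAC2 242141_at is the 1 grey bar that does not reach 0.

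Over the 12 probe sets, 7 had a positive and 5 a negative difference, and none passed the threshold of the methods, over 2-fold with an unadjusted p under 0.05, which 0.0439% of all probe sets did (0.0165% higher, 0.0275% lower). The sign was the same in all 3 replicate numbers for 3 probe sets, higher for HDAC2 201833_at and HDAC8 223909_s_at and lower for HDAC2 242141_at. Over all probe sets 12.4% were higher and 14.7% lower in each number, so 3 of 12 is near the background. The median difference was 0.09 over the 12 probe sets and -0.02 over all probe sets. Probe sets of the same gene had opposite signs in 6 of the 8 pairs that could be formed. Different probe sets bind with different strength, so the values do not rank the 6 genes by RNA level.

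HDAC1, HDAC2 201833_at and HDAC3 were highest on the arrays with the most probe sets above 3, those of number 1. HDAC1 averaged 7.56 on the number 1 arrays and 2.20 on the other 4, and HDAC2 201833_at 6.89 and 2.16, gaps of 5.36 and 4.73. For HDAC3 the gap was smaller, 2.64, with means of 5.45 and 2.80. Such gaps were common, since 3614 probe sets had a mean of at least 5 on the number 1 arrays. Their median gap was 3.2, and 42.6% of them had a mean under 3 on the other 4 arrays. The median of the control list of housekeeping genes, 11 measured, was 9.0, 4.48 and 5.14 in Vorinostat replicates 1, 2 and 3, and 8.43, 5.99 and 6.17 in DMSO replicates 1, 2 and 3. Housekeeping genes were thus also lower on the other 4 arrays. Within those 4, HDAC1 was lowest in DMSO replicate 3. That array had the highest housekeeping median of the 4 but the fewest probe sets above 3, 2761. The part of array signal in the values of the deacetylases was not tested.

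**Figure D3:**
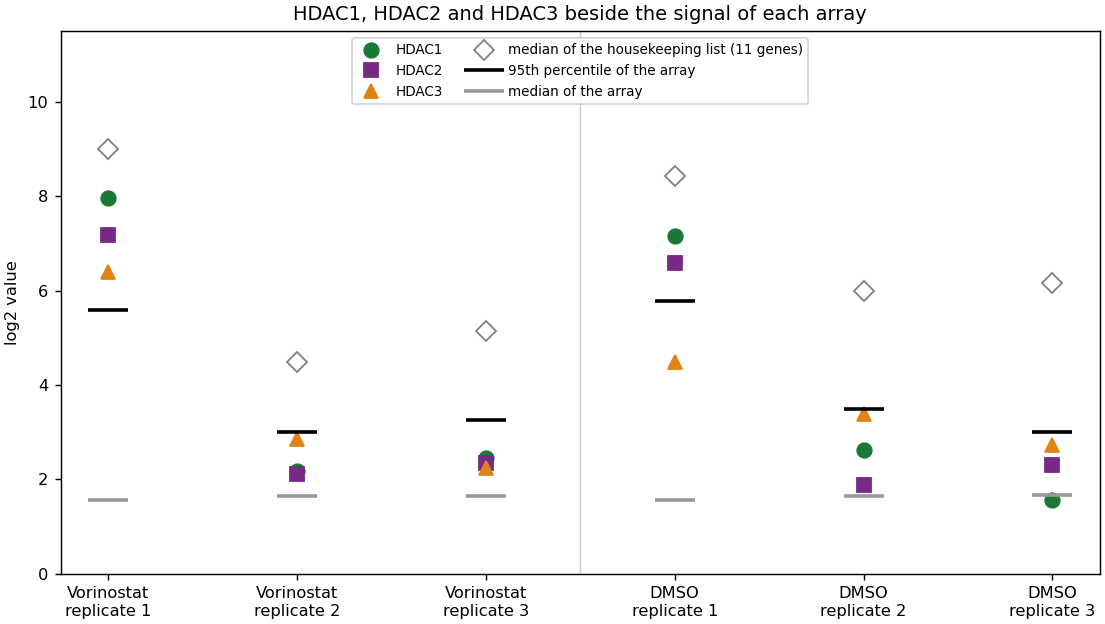
Log2 values of HDAC1, HDAC2 (201833_at) and HDAC3 on each array, with Vorinostat on the left and DMSO on the right, beside the median of 11 housekeeping genes (open diamonds) and the 95th percentile (black) and median (grey) of each array. HDAC1 and HDAC2 stand above the 95th percentile on the number 1 arrays and below it on the other 4.

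The genes most like HDAC1 over the 6 arrays, by Pearson correlation among genes with a mean of at least 3, were BRI3 (r = 0.9996) and MACF1 (r = 0.9994), MACF1 being a linker of actin and microtubules. For HDAC2 they were OSBPL9 (r = 0.9992), a lipid transfer protein, and NUDT21 (r = 0.9985), a factor of RNA 3′ end cleavage. For HDAC3 they were DENND4B (r = 0.9921) and ARF6 (r = 0.9901), a small GTPase of membrane traffic. These correlations describe 6 arrays of which 2 stand apart in signal. Of 3378 genes compared, 173 had r above 0.99 with HDAC1 and 135 with HDAC2, but 2 with HDAC3.

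Genes around the deacetylases were read from hand-written lists. The other deacetylases, class IIa, class IV and the NAD-dependent sirtuins, had 12 of 12 genes measured, of which 1 gene reached an unadjusted p under 0.05 from limma on the higher side and 0 on the lower, against 0.602% and 0.389% of all genes. The 1 gene was SIRT2, a sirtuin that, like HDAC6, deacetylates α-tubulin. SIRT2 had log2 values of 3.91, 3.82 and 3.97 in Vorinostat replicates 1, 2 and 3, against 3.66, 3.30 and 3.38 in DMSO replicates 1, 2 and 3. The groups did not overlap, as was so for 2.3% of all genes with Vorinostat above, and unlike HDAC1 and HDAC2 the gene read alike on the number 1 arrays and the others. Its log2 difference was 0.45 (standard error 0.128; unadjusted p = 0.0145, adjusted p = 1 from limma), so it did not pass after adjustment. With a mean of 3.67, SIRT2 also belongs to the fit limited to probe sets with a mean of at least 3. In that fit 0 probe sets were higher at an unadjusted p under 0.05, so the call of SIRT2 was lost. SIRT3, the mitochondrial sirtuin, had a difference of -0.07 (standard error 0.242). HDAC5, a class IIa enzyme, is named here after its values were seen. The study picked it from these arrays as an increasing gene, without naming a probe set, which is opposite to the direction here. The cause of this disagreement was not tested. HDAC5 had log2 values of 2.45, 2.40 and 2.56 in Vorinostat replicates 1, 2 and 3. In DMSO replicates 1, 2 and 3 they were 3.05, 2.65 and 2.66. Its Vorinostat values all lay below its DMSO values, as for 1.95% of all genes, and the log2 difference was -0.31 (standard error 0.143; unadjusted p = 0.0759, adjusted p = 1 from limma).

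The corepressor partners of the class I enzymes had 34 of 37 genes measured, 15 with a positive and 19 with a negative difference (53.1% of all genes were negative). At an unadjusted p under 0.05 there were 0 in either direction, against 0.602% higher and 0.389% lower of all genes. With the replicate number as a block 3 were higher and 1 lower, against 2.25% and 3.12% of all genes. GATAD2A, a NuRD subunit whose probe set here is of the kind that can bind other transcripts, had log2 values of 5.56, 4.33 and 3.51 in Vorinostat replicates 1, 2 and 3, against 4.95, 3.82 and 2.25 in DMSO replicates 1, 2 and 3. Its Vorinostat array was higher in each number, by 0.61, 0.51 and 1.27, while its groups overlapped (log2 difference 0.80, standard error 0.849, adjusted p = 1 from limma; unadjusted p = 0.0123 with the block). CHD4, the remodelling ATPase of NuRD, had a log2 difference of 0.33 (standard error 1.2), with -0.04, -0.17 and 1.18 within the numbers. MBD3, another NuRD subunit, had one of -0.24 (standard error 0.477), with -0.75, -0.12 and 0.14 within the numbers. The histone chaperones RBBP4 and RBBP7, shared by NuRD and SIN3, had differences of -0.57 and -0.92, with changing signs over the numbers.

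Substrates and partners of HDAC6, HDAC8 and HDAC10 had 26 of 27 genes measured, 9 with a positive and 17 with a negative difference (53.1% of all genes were negative). At an unadjusted p under 0.05 there were 0, against 0.602% higher and 0.389% lower of all genes. With the block 0 were higher and 4 of 26 lower, against 2.25% and 3.12% of all genes. The Vorinostat array was lower in each of the 3 numbers for 11 of the 26, against 13.7% of all genes. SMC1A, the cohesin subunit that pairs with the HDAC8 substrate SMC3, had log2 values of 6.03, 2.89 and 4.04 in Vorinostat replicates 1, 2 and 3, against 8.14, 4.64 and 5.24 in DMSO replicates 1, 2 and 3. It differed by -2.11, -1.75 and -1.2 within the numbers (log2 difference -1.69, standard error 1.22, adjusted p = 1 from limma; unadjusted p = 0.00105 with the block). ODC1, which opens polyamine synthesis, had a difference of -1.55 and HSP90AA1, a chaperone deacetylated by HDAC6, one of -1.29, and both were most negative in number 2, at -2.98 and -2.70. The housekeeping list had a median of -1.70 in number 2, and its part in these values was not tested. The α-tubulin genes TUBA1A and TUBA4A had positive differences of 0.85 and 0.74, of which number 2 had the opposite sign (-0.29 and -0.20), and the peroxidase PRDX1, another substrate of HDAC6, one of 0.14. SMC1A, TUBA1A, TUBA4A and SAT1 of this list and TBL1X of the corepressor partners are among the genes the study itself picked from these arrays, which leaves their direction without independent support.

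Histone acetyltransferases, the enzymes that oppose the deacetylases, had 12 of 13 genes measured, 4 with a positive and 8 with a negative difference (53.1% of all genes were negative). At an unadjusted p under 0.05 there were 0 with or without the block. Of all genes, 0.602% were higher and 0.389% lower at that level, and 2.25% and 3.12% with the block, so 0 of 12 is near the background. KAT6A had a log2 difference of -0.54, HAT1 of -0.96 and KAT2A of -0.06 (standard errors 0.764, 1.55 and 0.391). The median difference was -0.19 for this list, -0.26 for substrates and partners, -0.05 for corepressor partners, -0.02 for the other deacetylases and 0.29 for the 6 class I and IIb genes, against -0.02 for all genes. The housekeeping list had a median of -0.51, with 11 of 11 genes negative. For the class I and IIb genes the median was 0.37, 0.19 and -0.03 within replicate numbers 1, 2 and 3. Of the 6 genes, 3 had a mean under 3.

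**Figure D4:**
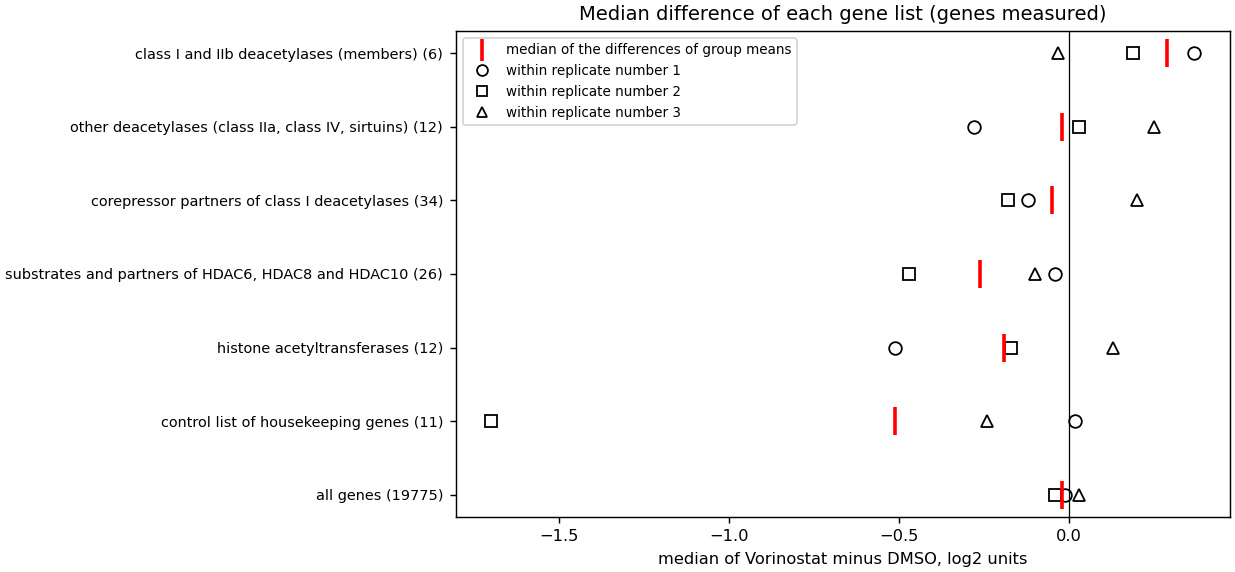
Median of Vorinostat minus DMSO in log2 units for each gene list, with the number of genes measured in brackets. Red ticks are medians of the differences of group means and open symbols the medians within each replicate number. The 6 class I and IIb genes lie between -0.03 and 0.37, and the housekeeping list reaches -1.70 in number 2.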

How the data were processed

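RNA of OCI-AML3 cells was measured on 6 Affymetrix arrays, 3 per group, mapped to Vorinostat or DMSO by their titles. The deposited values are log2 values per probe set. The authors handled the scanner files in Partek Genomics Suite. MAS5 and RMA appear in the submitters' processing notes, without saying which gave these values. That they are log2 was inferred from their range. The upper percentiles of the arrays differ, so no quantile normalisation across arrays had been applied, and none was added here.

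Of 54675 probe sets, 62 controls were left out and 54613 were tested. Of these, 41091 name 1 gene, with symbols updated through RefSeq (GRCh38.p14), 1801 name several and 11721 are unnamed here. Each of 19775 genes is represented by the probe set of highest mean. The groups were set against each other with lmFit and eBayes of limma 3.58.1 in R 4.3.3, without a block and with Benjamini-Hochberg adjustment over all 54613. The code was tested on simulated data. Intervals are 95% intervals of that fit. The number of arrays limits the precision, and with 3 arrays each, 0.1 is the smallest two-sided p of an exact permutation test.

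Deviations of arrays with the same number from their group means correlated over probe sets at 0.874, 0.599 and 0.672 for numbers 1, 2 and 3, each above 0.1, which met the level set for pairing. The main fit stayed without the block, and the pairing enters as an alternative fit and as differences within each number. Numbers 2 and 3 also correlated across, at 0.695 for Vorinostat replicate 2 with DMSO replicate 3 and 0.594 for Vorinostat replicate 3 with DMSO replicate 2. Deviations cancel within each group and the number 1 arrays stand apart in signal, so those of numbers 2 and 3 share a direction. The level therefore cannot show whether numbers 2 and 3 are paired as numbered. The alternatives were this block, quantile normalisation, centring on array medians, a mean of at least 3, the methods' t-test, leaving out arrays and averaging probe sets. Of the other lists, up to 3 genes per direction with the smallest unadjusted p and a mean of at least 3 are named. The members and lists were chosen with earlier results of these data known. Sequences come from RefSeq (GRCh38.p14).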

Additional observations from a re-analysis of the deposited data

How the results depend on the processing

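Signal limits these results, since 9 of the 12 deacetylase probe sets lay under 3 on all arrays and HDAC1 and HDAC2 201833_at were above it on 2. Leaving out 1 array leaves the other array of its number in 1 group, and the causes of the shifts were not tested. Of 67 differences of deacetylase probe sets or gene averages under settings that keep all arrays or drop both number 1 arrays, 61 kept their direction and side of the threshold, 5 reversed and 1 no longer passed. Of 72 without a single array, 49 kept both, 18 reversed, 4 no longer passed and 1 newly passed. At an unadjusted p under 0.05, blocking on the replicate number gave 867 higher and 1140 lower of all probe sets, against 272 and 273 without the block, and it changed no call on the 12 deacetylase probe sets. Quantile normalisation gave 476 lower, the methods' t-test 470 higher and 645 lower, and leaving out both number 1 arrays 841 higher and 997 lower. Among probe sets with a mean of at least 3, 0 were higher and 1 was lower. Leaving out single arrays gave 218 to 999 higher and 86 to 853 lower.

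Among the deacetylases the count of lower probe sets was 0 instead of 1 with the mean of at least 3 and without both number 1 arrays, where HDAC2 242141_at had a difference of -0.34 (unadjusted p = 0.0538 from limma), and 0 to 1 without single arrays, as was the count of higher ones. Without both number 1 arrays the difference was -0.51 for HDAC3, 0.027 for HDAC10 226672_s_at and -0.027 for HDAC10 232870_at. Averaged over the probe sets of a gene it was -0.0017 for HDAC2 and 0.0079 for HDAC10. Without single arrays it ranged from -1.47 to 2.10 for HDAC1, -1.36 to 1.79 for HDAC2, -0.99 to 1.09 for HDAC3, 0.18 to 0.47 for HDAC8, -0.00029 to 0.35 for HDAC6 and -0.13 to 0.048 for HDAC10. For the dimmer probe sets it ranged from -0.34 to -0.25 (HDAC2 242141_at), -0.2 to 0.019 (HDAC8 223345_at), -0.16 to 0.1 (HDAC8 223908_at), -0.08 to 0.47 (HDAC6 216224_s_at), -0.17 to 0.06 (HDAC6 211722_s_at) and 0.0027 to 0.11 (HDAC10 232870_at).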
